A study of Mus musculus with 23 samples.

Results

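The genes described here are 10 genes of bile acid synthesis out of 52327 gene symbols in the deposited liver count table. They were taken as every row whose Ensembl transcript belongs to *Cyp7a1*, *Cyp8b1*, *Cyp27a1*, *Cyp7b1*, *Cyp39a1*, *Hsd3b7*, *Akr1d1*, *Baat*, *Slc27a5* or *Nr0b2*, which gave 33 of 142434 transcript rows. All 10 had rows, 9 had reads, and these 9 passed the filter on low counts (at least 10 reads in at least 3 livers). The study sequenced mRNA from the livers of 23 young adult male Gabrg2tm1Wul/J mice, 1 library per mouse. This line carries a whole-body point mutation (F77I) in the γ2 subunit of the GABA type A receptor, to which acyl-CoA-binding protein binds. By the sample labels, 3 mice were +/+ and 5 were F77I/F77I on a regular chow diet (RCD), and 9 were +/+ and 6 were F77I/F77I on a high-fat diet (HFD). The count table has no line of column names, so no liver could be given to a diet or a genotype, and no comparison of diets or genotypes was made. The spread over the 23 livers therefore holds diet, genotype, mouse and library together.

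Hepatocytes turn cholesterol into bile acids along a classic pathway and an alternative one. In the classic pathway *Cyp7a1* catalyzes the first and rate-limiting hydroxylation, *Hsd3b7* oxidizes the sterol ring, *Cyp8b1* adds the hydroxyl group that distinguishes cholic acid from chenodeoxycholic acid, and *Akr1d1* reduces the ring. The alternative pathway begins with the mitochondrial sterol hydroxylase *Cyp27a1*, and *Cyp7b1* and *Cyp39a1* hydroxylate the oxysterols. *Slc27a5* activates bile acids with CoA and *Baat* joins them to taurine or glycine. *Nr0b2* encodes the small heterodimer partner, a receptor without a DNA-binding domain that bile acids induce through the nuclear receptor FXR and that represses *Cyp7a1* and *Cyp8b1*.

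The promoters of 3 members are printed because their genes recur in the comparisons that follow: *Cyp8b1* and *Akr1d1* had the highest Pearson's r of any pair of members with TMM scaling (by rho, and by r of plain CPM, *Hsd3b7* and *Baat* were higher), and *Nr0b2* is the repressor of the set. Of the members, 5 had a RefSeq window on GRCm38.p6 (250 bases before to 50 bases after the annotated start), namely *Cyp8b1*, *Nr0b2*, *Akr1d1*, *Cyp27a1* and *Hsd3b7*. *Cyp7a1*, *Cyp7b1*, *Cyp39a1*, *Baat* and *Slc27a5* had none. The sequences run 5′ to 3′ on the strand of the gene, and capitals mark matches to the motifs searched.
Cyp8b1 (chr9:121916256-121916555, reverse strand): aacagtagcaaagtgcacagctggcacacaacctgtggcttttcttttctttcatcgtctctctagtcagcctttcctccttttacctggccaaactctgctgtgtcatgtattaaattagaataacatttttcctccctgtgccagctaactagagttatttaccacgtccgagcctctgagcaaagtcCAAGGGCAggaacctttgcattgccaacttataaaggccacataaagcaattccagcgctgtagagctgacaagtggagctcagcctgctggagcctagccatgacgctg
Nr0b2 (chr4:133553126-133553425, forward strand): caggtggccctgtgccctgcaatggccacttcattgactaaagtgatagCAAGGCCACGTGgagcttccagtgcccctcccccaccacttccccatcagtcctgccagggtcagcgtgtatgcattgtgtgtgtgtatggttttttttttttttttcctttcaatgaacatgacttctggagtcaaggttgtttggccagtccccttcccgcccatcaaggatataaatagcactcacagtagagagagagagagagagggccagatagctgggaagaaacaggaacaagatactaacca
Akr1d1 (chr6:37529923-37530222, forward strand): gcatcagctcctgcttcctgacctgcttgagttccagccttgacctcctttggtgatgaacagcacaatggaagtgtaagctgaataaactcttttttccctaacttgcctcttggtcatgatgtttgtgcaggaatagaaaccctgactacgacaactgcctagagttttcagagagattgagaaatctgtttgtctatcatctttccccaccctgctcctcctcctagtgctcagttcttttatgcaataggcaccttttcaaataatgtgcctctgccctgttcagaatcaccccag

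The motifs were searched on both strands. CAAGGNCA, the element of the nuclear receptor NR5A2 (LRH-1) that drives bile acid genes, matched in *Cyp8b1* at bases 191 to 198 of the window and in *Nr0b2* at bases 50 to 57. It was present in 6.71% of the 32851 windows of the table. CACGTG, the E-box read by CLOCK and BMAL1, matched in *Nr0b2* at bases 56 to 61, where it overlaps the NR5A2 match by 2 bases, and was present in 7.15% of windows. TTANGTAA, the D-box, was present in 2.32% of windows, and the direct repeat of nuclear receptors with a spacer of 1 base (DR1) in 0.0396%. These 2 motifs had no match in the 5 member windows. A match is a string of letters and was not tested as a binding site.

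How much of each member could be counted was examined first. Reads were counted per transcript, and a read that overlaps more than 1 transcript was set aside as ambiguous. In the GENCODE vM39 annotation of GRCm39, 27.7% of the table's transcripts had no exon base of their own on their strand, and these held 2.02% of the assigned reads. A member was therefore read through the bases that no other transcript of its strand covers. *Cyp8b1*, *Cyp7b1* and *Nr0b2* have a single transcript each, and all of its 1950, 11107 and 1141 exon bases were countable. *Cyp7a1* kept 3946 of 4172 bases in its main transcript and *Akr1d1* 2643 of 2864. *Cyp27a1* kept 1132 of 2280 bases, *Slc27a5* 862 of 2348 and *Baat* 817 of 2080. The plot of countable bases shows the contrast between these genes and the last members.

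**Figure D1:**
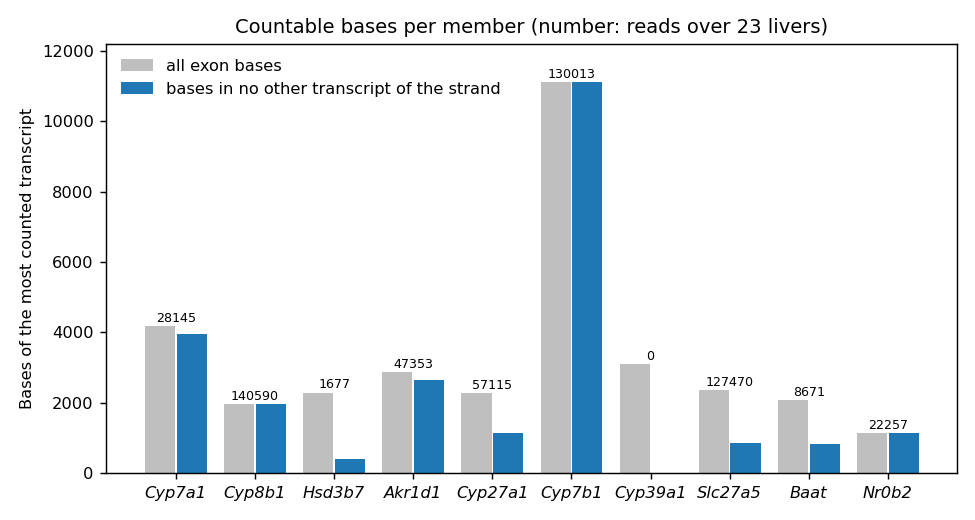
Exon bases (grey) and exon bases found in no other transcript of the same strand (blue) for the most counted transcript of each member, or the longest one for *Cyp39a1*, in which none was counted. Numbers above the bars are reads summed over 23 livers, and *Cyp39a1* has 0 reads and no countable base.

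*Cyp39a1* (ENSMUSG00000023963, chromosome 17, 43978281 to 44062322, forward strand), a hydroxylase of the alternative pathway, had 0 reads in all 23 livers. Its 4 annotated transcripts, all protein coding, had no exon base of their own, so this 0 says nothing about its expression. *Hsd3b7* (ENSMUSG00000042289, chromosome 7, 127399725 to 127402974, forward strand) was nearly as hard to read. Of its 1677 reads, 1676 were assigned to 1 retained-intron transcript through 387 bases of its own. On the opposite strand the uncharacterized transcript 9430064I24Rik (127399266 to 127401934) covers most of the gene and held 122404 reads. The kit is described as strand-specific, whereas the strand setting of the counting is not given in the sources used here. In vM39, 499 of the table's transcripts had over 300 bases of their own on their strand but none free of opposite-strand transcripts. These transcripts held 1912005 reads. How many reads of 9430064I24Rik come from *Hsd3b7* was not tested. In each liver 49.3% to 49.9% of the reads that were assigned, ambiguous or outside features lay outside features, and their part in the counts was not tested. Values of *Hsd3b7* are given below as uncertain.

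*Alb*, *Ttr*, *Apoa1* and *Cps1*, which mark hepatocytes, had medians of 82060, 15494, 7622 and 9003 CPM. The other 2 of the 6 hepatocyte markers fixed, *Serpina1a* and *Cyp2e1*, had medians of 2.02 and 20.9 CPM. CPM are reads scaled to a common total of gene-assigned reads per liver. Assigned reads ranged from 4858575 to 7626175 per liver, and mitochondrial genes took 13.4% to 18.1% of the reads of genes. The summed median was 19.3 CPM for 5 cholangiocyte genes, 63.8 for 4 stellate cell genes, 46.0 for 4 endothelial genes, 294.6 for 4 intestine genes, of which *Fabp2* alone had 293.1, 1.65 for 2 red blood cell genes, 0.868 for 4 pancreas genes and 0 for 3 adipocyte genes. Summed over 4 Kupffer cell genes, the level ran from 85.0 to 601.2 CPM with a median of 194.4. *Epcam*, *Spp1* and *Adgre1* were listed at 0 in every liver, as were several others. A low or 0 value does not show low expression in this table, since a marker too is read only through bases of its own. In these bulk livers, fewer cells of a type and less RNA per cell cannot be told apart. No 2 columns held identical values, and the highest Spearman correlation between livers over genes was 0.972.

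*Cyp7a1* (ENSMUSG00000028240, chromosome 4, 6265612 to 6275633, reverse strand) ranged from 55.0 to 371.8 CPM with a median of 192.4, a 6.76-fold range. The 2 lowest livers stood at 55.0 and 67.5 CPM. *Cyp8b1* (ENSMUSG00000050445, chromosome 9, 121743422 to 121745371, reverse strand) ranged from 549.9 to 1577 CPM around a median of 1023, a 2.87-fold range. The rate-limiting enzyme thus had the wider range. *Akr1d1* (ENSMUSG00000038641, chromosome 6, 37506944 to 37545751, forward strand) ranged from 166.9 to 444.6 CPM with a median of 343.8. Its 2 lowest livers, at 166.9 and 182.2 CPM, stood apart from the next at 226.7 CPM. *Hsd3b7* ranged from 7.77 to 19.3 CPM with a median of 11.6, and the sampling error at its median count of 73 reads was already 11.7%, against an observed coefficient of variation of 24.4%.

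The genes of the alternative pathway differed from each other. *Cyp27a1* (ENSMUSG00000026170, chromosome 1, 74752345 to 74777051, forward strand) ranged from 292.8 to 546.5 CPM with a median of 408.1, a 1.87-fold range. *Cyp7b1* (ENSMUSG00000039519, chromosome 3, 18117411 to 18297740, reverse strand) ranged from 483.5 to 1500 CPM with a median of 887.5, a 3.10-fold range. Both conjugation genes were steady. *Slc27a5* (ENSMUSG00000030382, chromosome 7, 12722273 to 12732137, reverse strand) lay between 672.4 and 1056 CPM with a median of 891.4, and *Baat* (ENSMUSG00000039653, chromosome 4, 49489289 to 49506563, reverse strand) between 43.9 and 78.8 CPM with a median of 60.4. *Nr0b2* (ENSMUSG00000037583, chromosome 4, 133280678 to 133283847, forward strand) was the most variable in CPM, from 46.1 to 402.0 with a median of 146.4, an 8.71-fold range.

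**Figure D2:**
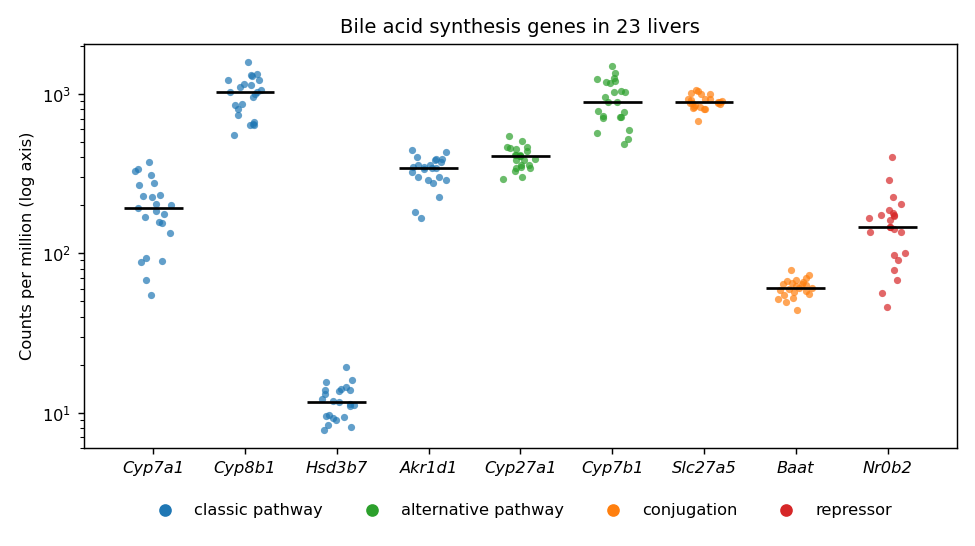
CPM (log axis) of the 9 members with reads in 23 livers, 1 point per liver, with the median as a black line and colors for the role in the pathway. *Cyp7a1* and *Nr0b2* spread over 6.76-fold and 8.71-fold ranges, whereas *Slc27a5* stays within 1.57-fold. Heights are not comparable between genes, because the countable length differs.

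On the log2 scale, with counts scaled by the trimmed mean of M values (TMM), the standard deviation (SD) over 23 livers was 0.76 for *Cyp7a1* and 0.73 for *Nr0b2*. Of the other 10789 genes tested, 94.7% and 93.6% had a smaller SD. *Cyp7b1* (SD 0.45) and *Cyp8b1* (SD 0.43) were above 64.1% and 61.5% of genes, and *Akr1d1* (SD 0.39) above 53.5%. *Hsd3b7* (SD 0.33), *Cyp27a1* (SD 0.26), *Baat* (SD 0.17) and *Slc27a5* (SD 0.14) were above 42.6%, 29.8%, 11.8% and 5.46%. The median SD of all 10790 genes was 0.37. These positions are descriptions without a test. For *Cyp7a1* and *Nr0b2*, sampling error at their median counts was 2.97% and 3.47%, against coefficients of variation of 44.9% and 50.5%.

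Levels can be set beside each other only per countable kilobase. In CPM per countable kilobase, *Slc27a5* led with a median of 918.9, followed by *Cyp8b1* with 524.5 and *Cyp27a1* with 288.9. *Slc27a5* exceeded *Cyp8b1*, and *Cyp8b1* exceeded *Cyp27a1*, in 23 of 23 livers, and *Cyp27a1* exceeded *Nr0b2* in 22. Then came *Nr0b2* (128.3), *Akr1d1* (121.2), *Cyp7b1* (79.9), *Baat* (73.9), *Cyp7a1* (48.7) and *Hsd3b7* (21.8). *Nr0b2* and *Akr1d1*, which were ordered this way in 13 livers, and *Cyp7b1* and *Baat*, in 14, had no fixed order. With all exon bases as length, *Cyp8b1* (524.5) stood above *Slc27a5* (379.6), and *Cyp7a1* (46.1) above *Baat* (29.0), so these orders depend on the length used.

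Whether the members rose and fell together was then examined over the 23 livers in the 36 pairs of the 9 measured members, on log2 CPM. Of the pairs, 19 had a positive and 17 a negative Pearson's r. With a two-sided permutation test (100000 resamples), 6 pairs had an unadjusted p under 0.05, 5 of them positive. In limma, with either member as the covariate and Benjamini-Hochberg adjustment over all 10789 other genes, no pair passed 0.05, and the lowest adjusted p was 0.0695. The smaller of the 2 adjusted p-values of a pair is given below. At an unadjusted p under 0.05, limma gave 9 pairs. The heat map of correlations shows how these values fall over the pathway.

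**Figure D3:**
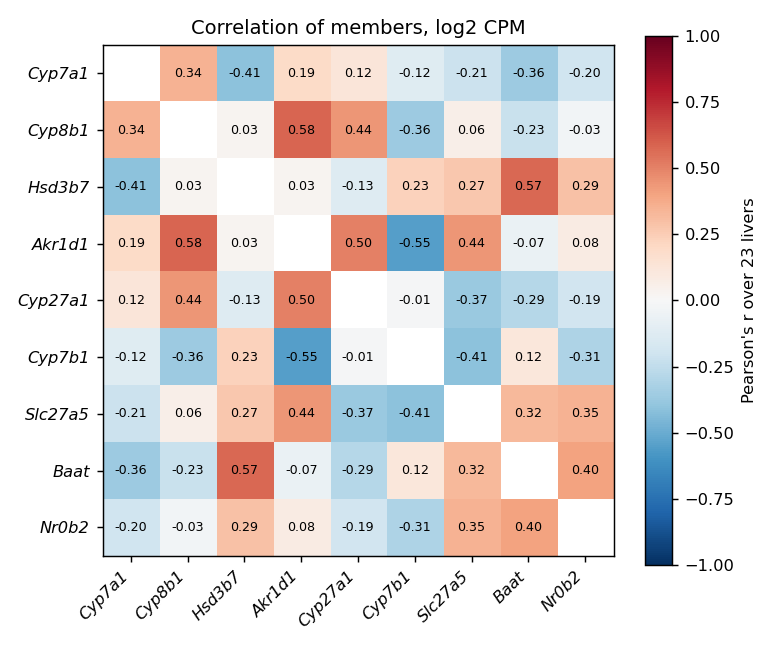
Pearson's r of log2 CPM over 23 livers for each pair of the 9 measured members, from -1 (blue) to 1 (red). The highest value is that of *Cyp8b1* and *Akr1d1* (0.58) and the lowest that of *Cyp7b1* and *Akr1d1* (-0.55).

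*Cyp8b1* and *Akr1d1*, both of the classic pathway, had r = 0.58 and rho = 0.40 (permutation p = 0.00328 and 0.0591, limma adjusted p = 0.0695). Without the 2 livers farthest from the *Cyp8b1* median r was 0.28, so the value over all 23 livers depends on them. They are also the 2 livers lowest in *Akr1d1*. The smaller of the 2 sets of livers described below, with 8 livers, holds neither of them and had r = 0.56. *Cyp27a1* and *Akr1d1* had r = 0.50 and rho = 0.35 (permutation p = 0.0146 and 0.0996, adjusted p = 0.143), which fell to 0.21 without the 2 livers farthest from the *Cyp27a1* median. *Cyp8b1* and *Cyp27a1* had r = 0.44 and rho = 0.43 (permutation p = 0.0347 and 0.0430, adjusted p = 0.209) and r = 0.25 without the 2 livers farthest from the *Cyp8b1* median. Over all 23 livers, the r of each pair of these 3 genes thus fell when a few livers were left out.

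The oxysterol hydroxylase *Cyp7b1* went the other way from *Akr1d1*, with r = -0.55 and rho = -0.54 (permutation p = 0.00537 and 0.00937, adjusted p = 0.102). Without the 2 livers farthest from the *Cyp7b1* median r was -0.51. *Akr1d1* and *Slc27a5* had r = 0.44 and rho = 0.43 (permutation p = 0.0398 and 0.0443, adjusted p = 0.142), and r was 0.44 without the 2 livers farthest from the *Akr1d1* median. *Hsd3b7* and *Baat* had r = 0.57 and rho = 0.47 (permutation p = 0.00395 and 0.0246, adjusted p = 0.104), and r was 0.45 without the 2 livers farthest from the *Hsd3b7* median. With plain CPM in place of TMM, the adjusted p of this pair was 0.0463, and *Cyp27a1* and *Slc27a5*, at r = -0.37 and adjusted p = 0.268 with TMM, reached r = -0.62 and adjusted p = 0.0258. With TMM, *Cyp27a1* and *Slc27a5* had r = -0.45 without the 2 livers farthest from the *Cyp27a1* median, and r = -0.56 (permutation p = 0.00683) without the 2 livers lowest in *Akr1d1*. The value of this pair thus moved with the scaling and with the livers included. With the log2 library total as a covariate, the adjusted p of *Cyp8b1* and *Akr1d1* was 0.0492. Leaving out a single liver brought this pair under 0.05 for 4 of the 23 livers, with adjusted p-values from 0.0365 to 0.0482. Leaving out the liver lowest in *Slc27a5* and *Baat* also brought *Cyp27a1* and *Akr1d1* to r = 0.64 and an adjusted p of 0.0384.

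No relation between the repressor and its targets was detectable over these livers. *Cyp7a1* and *Nr0b2* had r = -0.20 and rho = -0.15 (permutation p = 0.366 and 0.503, adjusted p = 0.717), and r was -0.16 without the 2 livers farthest from the *Cyp7a1* median. *Cyp8b1* and *Nr0b2* had r = -0.03 and rho = -0.01 (permutation p = 0.903 and 0.977, adjusted p = 0.973). The sign of this last value turned to positive with the library total (0.0013) or the first principal component (0.076) as a covariate. Within the sets of 8 and 15 livers described below, *Cyp7a1* and *Nr0b2* had r = -0.55 and -0.0011. *Cyp8b1* and *Nr0b2* had r = -0.13 and 0.17 there. These values within the sets were not tested. *Cyp7a1* and *Cyp8b1*, which *Nr0b2* is known to repress together, had r = 0.34 and rho = 0.27 (permutation p = 0.107 and 0.210, adjusted p = 0.657), and r fell to 0.06 without the 2 livers farthest from the *Cyp7a1* median.

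**Figure D4:**
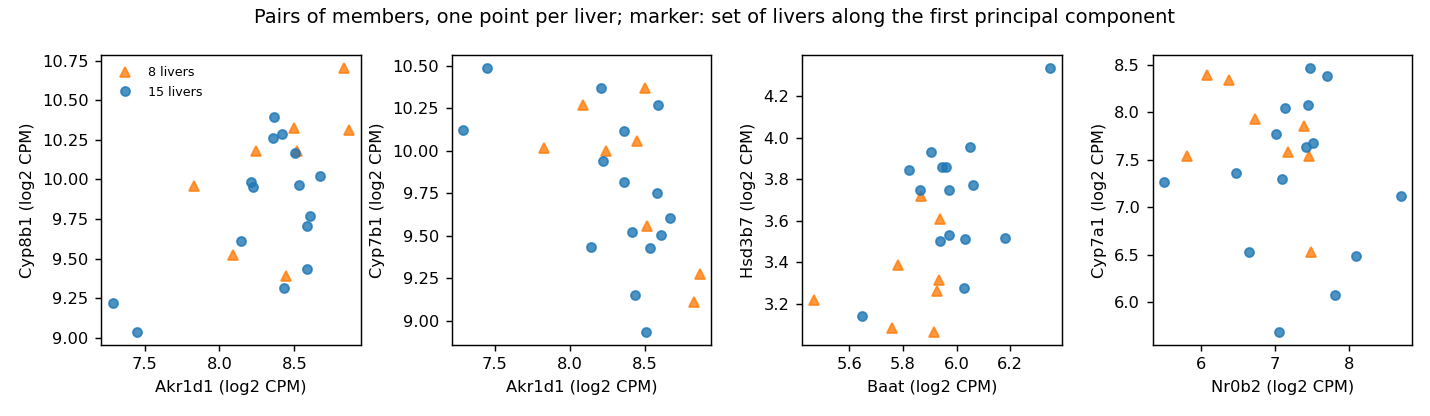
Log2 CPM of 4 pairs of members, 1 point per liver, with markers for the sets of 8 (triangles) and 15 (circles) livers that the first principal component of all genes separates. *Cyp8b1* and *Akr1d1* have r = 0.58 over 23 livers and 0.28 without the 2 livers at the lower left of the first panel. The set of 8, which holds neither of these, has r = 0.56. *Cyp7a1* against *Nr0b2* has r = -0.20.

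The 2 livers lowest in *Akr1d1* were then followed over the other members. The liver lowest in *Akr1d1* (166.9 CPM) was also the lowest of 23 in *Cyp7a1* (55.0 CPM) and *Cyp27a1* (292.8 CPM) and the second lowest in *Cyp8b1* (637.7 CPM). It ranked 18 from the lowest in *Cyp7b1* and *Slc27a5* and 19 in *Baat*. The liver second lowest in *Akr1d1* (182.2 CPM) was the lowest in *Cyp8b1* (549.9 CPM) and the highest in *Cyp7b1* (1500 CPM), but ranked 19 in *Cyp7a1* (276.1 CPM). This second liver ranked 5 in *Cyp27a1* and *Slc27a5*, 12 in *Nr0b2*, 13 in *Hsd3b7* and 17 in *Baat*. The assigned reads of the 2 livers ranked 8 and 2 from the lowest, and their mitochondrial shares, 13.5% and 14.4%, ranked 2 and 3. Their median Spearman correlations with the other livers, 0.953 and 0.955, ranked 5 and 10 from the lowest. Why these livers were low in *Akr1d1* was not tested. Without both, 4 pairs had an unadjusted permutation p under 0.05. These were *Cyp7b1* and *Akr1d1* (r = -0.48), *Hsd3b7* and *Baat* (r = 0.57), *Akr1d1* and *Slc27a5* (r = 0.44), and *Cyp27a1* and *Slc27a5* (r = -0.56).

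The first principal component of all 10790 genes held 15.6% of the variance and split the livers into sets of 8 and 15. Diet, genotype and any batch cannot be told apart here. *Hsd3b7* (r = 0.64, rho = 0.59, permutation p = 0.00118 and 0.00303) and *Baat* (r = 0.62, rho = 0.64, permutation p = 0.000740 and 0.00141) followed this component. Without the 2 livers farthest from its median, both in the set of 8, r was 0.55 and 0.47. *Cyp27a1* (r = -0.50, rho = -0.33, permutation p = 0.0145 and 0.117) and *Slc27a5* (r = 0.44, rho = 0.31, permutation p = 0.0312 and 0.156) did so in r and not in rho. These p-values of 9 members were not adjusted. Within the sets of 8 and 15, *Hsd3b7* and *Baat* had r = 0.27 and 0.51, and with the component as a covariate r was 0.29. *Cyp8b1* and *Akr1d1* had r = 0.56 and 0.57 within the sets. The set of 15 holds both livers low in *Akr1d1*, without which this pair had r = 0.28 over the 21 others. *Cyp7b1* and *Akr1d1* had r = -0.70 and -0.51 within the sets. *Cyp27a1* and *Akr1d1* had r = 0.45 and 0.54, *Akr1d1* and *Slc27a5* 0.57 and 0.53, *Cyp8b1* and *Cyp27a1* 0.45 and 0.29, and *Cyp27a1* and *Slc27a5* -0.43 and -0.08. All pairs given here kept their sign within both sets. They were picked by values over the same livers, so this is no separate evidence. Of the other pairs with *Akr1d1*, those with *Cyp7a1* (r = -0.15 and 0.26) and *Baat* (0.46 and -0.20) changed sign. Those with *Hsd3b7* (0.36 and 0.07) and *Nr0b2* (0.39 and 0.04) did not.

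Each member was then set against all other genes, with limma and an adjusted p under 0.05 as the call. *Slc27a5* was correlated with 679 genes (6.29% of 10789), 368 positively and 311 negatively. *Akr1d1* was correlated with 174 genes (1.61%), *Cyp27a1* with 104 (0.964%), *Cyp7b1* with 87 (0.806%), *Hsd3b7* with 43 (0.399%), *Baat* with 20 (0.185%) and *Nr0b2* with 9 (0.0834%). *Cyp7a1* and *Cyp8b1* were correlated with 0 genes (0%), and 493 and 867 genes had an unadjusted p under 0.05 in limma. DESeq2 size factors and ranks also gave 0 for both. So *Cyp7a1*, the member with the largest SD, had no called partner, whereas *Slc27a5*, with the smallest SD of the 9 members, had the most in this fit. *Akr1d1* had more (352 against 322) with the first principal component as a covariate, and *Baat* had more (489 against 356) without the liver highest in *Slc27a5*.

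**Figure D5:**
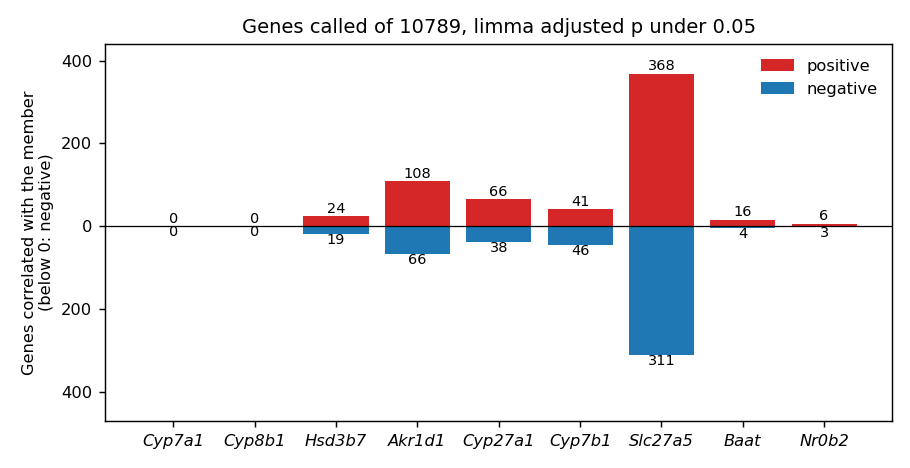
Number of genes correlated with each member over 23 livers (limma, adjusted p under 0.05), positive above and negative below the zero line. *Slc27a5* has 368 positive and 311 negative partners, and *Cyp7a1* and *Cyp8b1* have 0.

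These counts moved with single livers. Leaving out 1 liver at a time, the count ranged from 247 to 752 for *Slc27a5*, from 14 to 216 for *Akr1d1*, from 0 to 159 for *Cyp27a1* and from 26 to 119 for *Cyp7b1*. It ranged from 0 to 284 for *Hsd3b7*, from 0 to 489 for *Baat* and from 1 to 21 for *Nr0b2*. The lowest count for *Akr1d1* came without the liver lowest in it, that for *Cyp27a1* without the liver highest in it, that for *Cyp7b1* without the liver highest in it, and that for *Slc27a5* without the liver lowest in it. The counts for *Baat* and *Hsd3b7* moved by over 1.5 times when a single liver was left out for 22 and 17 of the 23 livers, that for *Nr0b2* for 10 and that for *Cyp27a1* for 9. For *Cyp7b1* and *Slc27a5* 3 livers did so, and for *Akr1d1* 2. Without both livers low in *Akr1d1*, that gene had 0 called partners.

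By likeness over the 23 livers, among protein-coding genes with a median of at least 5 CPM, the nearest to *Cyp7b1* were the major urinary protein genes *Mup15* (r = 0.88, rho = 0.89, adjusted p = 6.45e-06) and *Mup14* (r = 0.87, rho = 0.88, adjusted p = 2.72e-05). Genes of this family are near-identical copies, so single members of it are uncertain. Lowest against *Cyp7b1* were *Sparcl1*, an extracellular matrix protein (r = -0.82, rho = -0.80, adjusted p = 0.000448), and *Dll4*, a Notch ligand of endothelium (r = -0.81, rho = -0.75, adjusted p = 0.00254). Without the 2 livers farthest from the *Cyp7b1* median, these 4 correlations were 0.84, 0.88, -0.76 and -0.75. *Sparcl1* and *Dll4* had medians of 5.22 and 8.49 CPM, not far above the minimum of 5 CPM. With the log2 library total as a covariate, the number of genes called negatively for *Cyp7b1* fell from 46 to 4.

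*Akr1d1* was nearest to *Shld1*, a DNA repair factor (r = 0.90, rho = 0.77, adjusted p = 7.23e-06), and to *Wee1*, a kinase that restrains mitosis (r = 0.87, rho = 0.71, adjusted p = 1.05e-05). It was farthest from *Scamp5*, a membrane trafficking protein (r = -0.83, adjusted p = 0.000514), and *Itih3*, an inter-alpha-trypsin inhibitor chain (r = -0.78, adjusted p = 0.00159). Without the 2 livers low in *Akr1d1*, the values were 0.78 for *Shld1*, 0.61 for *Wee1*, -0.64 for *Scamp5* and -0.41 for *Itih3*.

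*Slc27a5* was nearest to *Nipsnap1*, a mitochondrial protein (r = 0.84, adjusted p = 0.00189), and *Pdk2*, a kinase that inhibits pyruvate dehydrogenase (r = 0.84, adjusted p = 0.00189), and farthest from *Tmem64* (r = -0.87, adjusted p = 0.00189) and *Scaf8* (r = -0.84, adjusted p = 0.00189). Their rho values were 0.74, 0.66, -0.77 and -0.66. *Baat* was nearest to *Akr1c6*, a hydroxysteroid dehydrogenase (r = 0.79, rho = 0.72, adjusted p = 0.0129), and to *Ubb*, a ubiquitin gene (r = 0.78, rho = 0.63, adjusted p = 0.0129). It was farthest from *Dennd11* (r = -0.78, adjusted p = 0.0259) and *Xrcc6*, a DNA end-binding protein (r = -0.73, adjusted p = 0.0482). For *Akr1c6* and *Ubb* r was 0.62 and 0.62 with the first principal component as a covariate.

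*Cyp27a1* was nearest to *Snap29*, a membrane fusion protein (r = 0.83, rho = 0.78, adjusted p = 0.00767), and *Stt3b*, a subunit of the enzyme that attaches N-glycans (r = 0.82, rho = 0.84, adjusted p = 0.0126). Its lowest were *Ocel1* (r = -0.76, adjusted p = 0.0383) and the histone demethylase *Kdm5b* (r = -0.75, adjusted p = 0.0126). *Nr0b2* was nearest to *Apoc1*, an apolipoprotein (r = 0.78, rho = 0.69, adjusted p = 0.0157), and *Slc35d2*, a nucleotide sugar transporter (r = 0.77, rho = 0.74, adjusted p = 0.0272). Its lowest was *Alas1*, the rate-limiting enzyme of heme synthesis (r = -0.80, rho = -0.71, adjusted p = 0.00309), which had r = -0.76 without the 2 livers farthest from the *Nr0b2* median. *Sin3b*, a corepressor scaffold, had r = -0.76 with an adjusted p of 0.0683.

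For *Hsd3b7*, whose counts are uncertain, the nearest were *Harbi1* (r = 0.79) and *Gbp7* (r = 0.76), and the farthest *Gnai3* (r = -0.76) and *Etnk1* (r = -0.74), each with an adjusted p of 0.0371. For *Cyp7a1* the highest were *Tlcd3a* (r = 0.71, adjusted p = 0.720) and *Secisbp2* (r = 0.68, adjusted p = 0.929), and the lowest *Tnrc6a* (r = -0.62) and *Clec2h* (r = -0.62), both at an adjusted p of 0.929. For *Cyp8b1* they were *Pank3* (r = 0.70, adjusted p = 0.314) and *Upk3b* (r = 0.67, adjusted p = 0.295), and *Tgm2* (r = -0.74, adjusted p = 0.295) and *Zfp595* (r = -0.71, adjusted p = 0.325). None of these 8 genes passed the test.

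Other genes of the pathway were taken from lists, and each count stands against the share of all genes called for that member. Of 11 tested genes for other steps of synthesis, 2 were correlated with *Baat* (0.185% of all genes), both positively: *Akr1c6*, given above, and *Scp2*, a peroxisomal thiolase and sterol carrier (r = 0.70, rho = 0.70, adjusted p = 0.0482). For *Scp2* r was 0.47 without the 2 livers farthest from the *Baat* median and 0.44 with the first principal component as a covariate. *Baat* had no called gene by ranks, without those 2 livers or with that covariate. *Cyp2c70*, the enzyme that makes muricholic acids in mice, was correlated with *Cyp7b1* (0.806% of all genes; r = 0.70, rho = 0.77, adjusted p = 0.0142). None of the 11 was called for the other 7 members. The median r of these 11 genes was 0.21 with *Baat* and 0.44 with *Hsd3b7*, against -0.01 for all genes in both.

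Of 14 tested regulators, 3 were correlated with *Slc27a5*, all positively, and 0 with any other member. Of all genes, 6.29% were called for *Slc27a5*. Among them were *Mafg*, a small Maf protein and repressor of bile acid genes (r = 0.78, rho = 0.64, adjusted p = 0.00239), and the D-box factor *Dbp* (r = 0.68, rho = 0.53, adjusted p = 0.0110). The FXR gene *Nr1h4* (median 10.3 CPM) and the LRH-1 gene *Nr5a2* (median 68.4 CPM) were not called for any member. Of 11 transporters, *Atp8b1*, a phospholipid flippase of the canalicular membrane, was negatively correlated with *Akr1d1* (1.61% of all genes; r = -0.67, rho = -0.32, adjusted p = 0.0360), and *Slc51a*, a subunit of the basolateral bile acid exporter, positively with *Slc27a5* (r = 0.66, rho = 0.57, adjusted p = 0.0293). Without the 2 livers low in *Akr1d1*, *Atp8b1* had r = -0.19. None of 8 cholesterol synthesis genes was called for any member, and their median r was -0.45 with *Baat* and 0.25 with *Cyp27a1*.

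The next counts stand against the share of all genes called, 1.61% for *Akr1d1*, 6.29% for *Slc27a5*, 0.806% for *Cyp7b1* and 0.399% for *Hsd3b7*. Of 9 tested clock genes, *Clock* was negatively correlated with *Akr1d1* (r = -0.65, rho = -0.63, adjusted p = 0.0406) and *Dbp*, also among the regulators, positively with *Slc27a5*. Without the 2 livers low in *Akr1d1*, *Clock* had r = -0.38, and without the 2 livers farthest from the *Slc27a5* median, *Dbp* had r = 0.44. None was called for *Cyp7a1*, a gene known to cycle over the day. With 0 of all 10789 genes called for *Cyp7a1*, this says nothing about a relation to the clock. Of the 6 periportal genes, *Hal*, which degrades histidine, was negatively correlated with *Cyp7b1* (r = -0.65, adjusted p = 0.0483) and positively with *Slc27a5* (r = 0.60, adjusted p = 0.0327), the latter at r = 0.31 without the 2 livers farthest from the *Slc27a5* median. *Pck1*, an enzyme of glucose production (r = -0.71, adjusted p = 0.0371), and *Sds* (r = -0.68, adjusted p = 0.0371) were negatively correlated with *Hsd3b7*, whose counts are uncertain. With the first principal component as a covariate, r was -0.47 for *Pck1* and -0.42 for *Sds*. *Hsd3b7* had no called gene with that covariate or with the library total. None of the 5 tested pericentral genes was called for any member. The same held for the 1 cholangiocyte, 3 Kupffer, 4 stellate, 3 endothelial, 1 intestine, 1 pancreas and 1 red blood cell markers tested. At the shares of all genes called, so few markers could give no call, so these counts say nothing about cell types. Of the 6 tested hepatocyte markers, *Apoa1* was positively correlated with *Slc27a5* (r = 0.69, adjusted p = 0.0170).

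Library measures were compared with the members in the same way. *Cyp7b1* had r = -0.42 and rho = -0.40 with the log2 library total (permutation p = 0.0474 and 0.0602), and -0.51 without the 2 livers of most extreme depth. *Cyp27a1* had r = 0.49 and rho = 0.44 with the share of mitochondrial reads (permutation p = 0.0190 and 0.0343), and 0.38 without the 2 most extreme livers. *Hsd3b7* had r = 0.43 and rho = 0.44 with the opposite-strand 9430064I24Rik (permutation p = 0.0400 and 0.0356), and 0.26 without the 2 livers most extreme in it. *Baat* had r = 0.30 and rho = 0.46 with 9430064I24Rik (permutation p = 0.172 and 0.0275), and r = 0.38 without those 2 livers. These relations come from 36 with library total, ambiguous share, mitochondrial share and 9430064I24Rik, and they were not adjusted for that number. Of these measures the library total was entered as a covariate, with which *Cyp7b1* had 18 called genes and *Cyp27a1* 58. The part of the mitochondrial share was not tested.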

How the data were processed

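Livers of 23 mice were sequenced by the authors as strand-specific mRNA libraries. Per the labels, reads were aligned with HISAT2 2.2.1 to GRCm39 and counted with HTSeq 0.13.5. No source used here names the annotation release or the strand setting. The authors deposited whole-number counts per Ensembl transcript, without normalization, for 23 columns without names. The 5 closing rows were left out, as were 1503 transcripts without a symbol, with 0.0449% to 0.0743% of the assigned reads.

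Transcript counts were summed per symbol. Genes with at least 10 reads in at least 3 livers (10790) were scaled with edgeR 4.0.16 (TMM, prior count 2) and fitted with limma 3.58.1 (trend), with a member as the covariate. Benjamini-Hochberg adjustment covered all genes. The libraries come from separate mice. Named genes are, for each member, the 2 highest and the 2 lowest in Pearson's r among protein-coding genes of at least 5 CPM, the members and the listed genes. Alternatives included DESeq2 1.42.0 size factors. The fit was tested on simulated counts. Members and lists were chosen with earlier results of these data known. Countable bases were computed from GENCODE vM39, which places 141090 of the 142434 transcripts, and promoters come from RefSeq on GRCm38.p6. Some items of the lists and motifs are not reported here. R 4.3.3 and Python 3.11.15 were used.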

Additional observations from a re-analysis of the deposited data

How the results depend on the processing

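The SD of each member stayed within 1.5 times in all 27 alternative values (plain CPM, DESeq2 size factors, without the highest and lowest liver), though without these livers it fell from 0.17 to 0.12 for *Baat* and from 0.14 to 0.099 for *Slc27a5*. Of 90 alternative correlations, 85 kept their sign and their side of the threshold. No pair was called in the main fit, so an r that fell without changing sign also counts among these. For *Cyp8b1* and *Akr1d1* it fell from 0.58 to 0.28 without the 2 livers farthest from the *Cyp8b1* median. The number of correlated member pairs, 0, became 2 with plain CPM (*Hsd3b7* and *Baat*, r = 0.61, and *Cyp27a1* and *Slc27a5*, r = -0.62) and 1 with the log2 library total as a covariate (*Cyp8b1* and *Akr1d1*, r = 0.63). The correlation of *Cyp8b1* and *Nr0b2* turned from -0.03 to 0.0013 with that covariate and to 0.076 with the first principal component, the latter chosen after seeing the data. The cause was not tested.

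The number of genes correlated with *Cyp27a1*, 104, was 56 with plain CPM, 31 without the filter, 27 by ranks, 1 without the 2 livers farthest from the median, 58 with the library total and 19 with the first principal component. For *Cyp7b1*, 87, it was 51 without the filter, 41 without the 2 livers, 18 with the library total and 232 with the component. For *Hsd3b7*, 43, it was 192 with plain CPM, 0 without the filter, 1 without the 2 livers, 0 with the library total and 0 with the component. For *Akr1d1*, 174, it was 10 by ranks, 0 without the 2 livers, 115 with the library total and 352 with the component. For *Baat*, 20, it was 400 with plain CPM, 5 with DESeq2 size factors, 3 without the filter, 0 by ranks, 0 without the 2 livers, 5 with the library total and 0 with the component. For *Slc27a5*, 679, it was 315 without the filter, 227 by ranks, 65 without the 2 livers and 322 with the component. For *Nr0b2*, 9, it was 1 by ranks and 2 with the component. With no filter 26572 genes were adjusted for, and without the 2 livers 21 remained.

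Leaving out each liver in turn, an alternative chosen after seeing the data, gave 0 to 2 called pairs, 0 to 1 genes for *Cyp8b1*, 0 to 159 for *Cyp27a1*, 26 to 119 for *Cyp7b1*, 0 to 284 for *Hsd3b7*, 14 to 216 for *Akr1d1*, 0 to 489 for *Baat*, 247 to 752 for *Slc27a5* and 1 to 21 for *Nr0b2*. Over these alternatives r ranged from 0.47 to 0.64 for *Cyp8b1* and *Akr1d1*, from 0.33 to 0.64 for *Cyp27a1* and *Akr1d1* and from -0.086 to 0.037 for *Cyp8b1* and *Nr0b2*.

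With all counted reads as the denominator, median CPM was 25.04 for *Cyp7a1*, 134.4 for *Cyp8b1*, 51.8 for *Cyp27a1*, 115.5 for *Cyp7b1*, 1.52 for *Hsd3b7*, 45.4 for *Akr1d1*, 7.95 for *Baat*, 117.9 for *Slc27a5* and 18.9 for *Nr0b2*, lower by construction. Per kilobase of all exon bases it was 179.0 for *Cyp27a1*, 5.08 for *Hsd3b7*, 29.0 for *Baat* and 379.6 for *Slc27a5*. No paired analysis was possible because the columns carry no replicate numbers. Depth limits *Hsd3b7* most, at a median of 73 reads.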

Other observations

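Over all genes tested, the first principal component left a gap of 31.8% of its range between the sets of 8 and 15 livers. Among other bile acid genes, the uptake carrier *Slco1b2* had a median of 1109 CPM, the canalicular pump *Abcc2* 698.4 CPM and the sterol carrier *Scp2* 872.6 CPM. The cholesterol synthesis gene *Cyp51* ran from 27.9 to 349.8 CPM over the 23 livers.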
